A study of Rattus norvegicus with 22 samples.

Results

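The serotonin receptor genes examined here were Htr1a, Htr1b, Htr1d, Htr2a, Htr2b, Htr2c, Htr3a, Htr5b and Htr7, 9 of the 32883 genes in the table of read counts. They were chosen by name, as the rows whose gene symbol was one of these 9. RNA was sequenced from the ventral part of spinal segments C3-C6, 1 library per rat, in young-adult Sprague-Dawley rats aged 3 to 4 months. There were 5 males with intact testes, 5 castrated males (GDX), 6 virgin females with intact ovaries and 6 ovariectomized virgin females (OVX). Tissue of the gonadectomized rats was taken 2 weeks after the operation. Intact rats were matched to them for age, and no sham operation is described for them in the sources used here. Rats are named by group and by the number in their sample title, so that the intact males were rats 1, 2, 3, 5 and 6 and the GDX males rats 1, 2, 4, 5 and 6.

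Serotonin released in the phrenic motor nucleus, which drives the diaphragm, is needed for the lasting rise in phrenic motor output that follows brief repeated hypoxia. Receptors coupled to Gq, the 5-HT2 family, start one route to this facilitation through phospholipase C and protein kinase C, and 5-HT7 receptors, coupled to Gs, start another through cyclic AMP, and the routes can restrain each other. The 5-HT1 receptors and the related 5-HT5 group couple to Gi and lower cyclic AMP, while 5-HT3 receptors are ion channels opened by serotonin.

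Each library held between 12371756 and 17571887 counted reads, and group medians were 14196615 for intact males, 15645521 for GDX males, 14640726 for intact females and 14766802.5 for OVX females. Levels are given as CPM, the reads of a gene per 1000000 reads of the library, with library size scaled by the TMM factors of edgeR. No level was divided by gene length, so levels are compared between rats. Where a marker is called the most abundant of a list, it had the highest CPM, without correction for length. The libraries fell into a long and a short class of average fragment size, and the classes were uneven over the groups. All 11 libraries of GDX and OVX rats were short, as were those of 4 intact rats, females 1 and 4 and males 2 and 5, and the other 7 libraries, all from intact rats, were long. Removal of the gonads and fragment class therefore cannot be fully told apart, and values with the class as a term or from short libraries alone are given for some of the results below.

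All 9 genes had reads, but 5 of them, Htr2c, Htr2a, Htr1b, Htr1a and Htr3a, had at least 1 read in every rat. The reads behind each value set its precision. Htr2c had between 798 and 1304 reads per library, Htr2a between 178 and 355, Htr1b between 46 and 116, and Htr1a between 15 and 53. Htr3a had between 3 and 19. Htr1d, Htr2b, Htr5b and Htr7 never had more than 8 reads in a library, and these 4 genes did not pass the filter on low counts in any comparison. A limit of 3 reads, which a count of 0 allows, stood between 0.167 and 0.240 CPM in these libraries and covers counting error only.

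**Figure D1:**
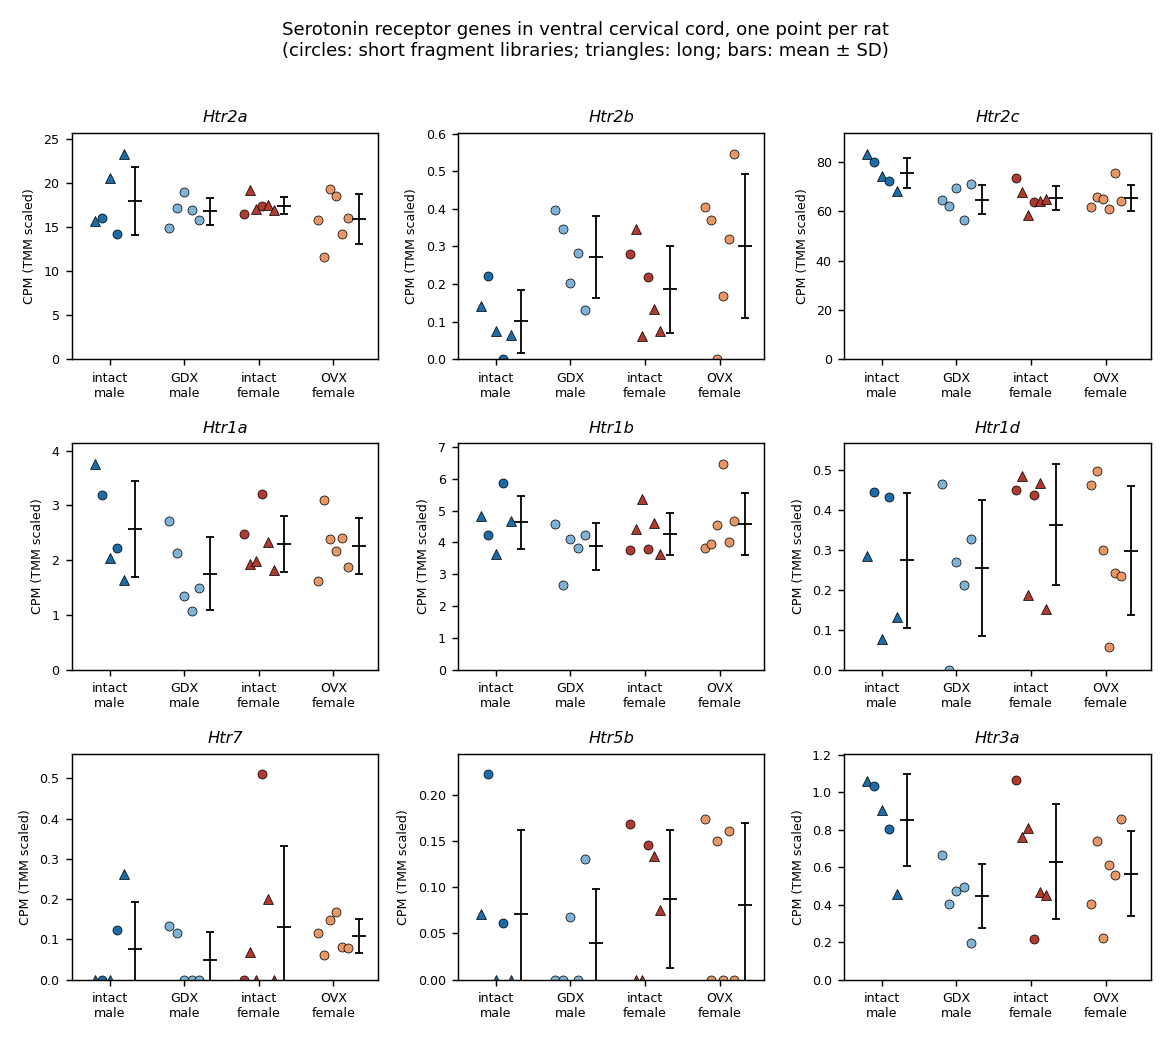
CPM (TMM scaled, vertical axes from 0) of the 9 serotonin receptor genes in the 4 groups. Each point is 1 rat, circles are short and triangles long fragment libraries, and bars are the mean ± SD of 5 or 6 rats. Htr2c was between 56.6 and 70.9 in GDX males against 68.0 to 83.3 in intact males, and the groups overlapped in every panel.

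Htr2c (ENSRNOG00000030877) encodes a Gq-coupled 5-HT2 receptor, and it was the 1 receptor gene with an adjusted p under 0.1 after castration. Intact males 1, 2, 3, 5 and 6 had 83.3, 79.8, 74.4, 72.3 and 68.0 CPM. GDX males 1, 2, 4, 5 and 6 had 64.5, 62.1, 69.6, 56.6 and 70.9 CPM. GDX males 1, 2 and 5 lay below every intact male, and GDX males 4 and 6 lay within the range of the intact group. The means were 64.7 ± 5.81 CPM (SD, n = 5) in GDX males and 75.6 ± 6.04 CPM (SD, n = 5) in intact males. The level of Htr2c fell by 0.22 on the log2 scale (SE 0.068, 95% confidence interval -0.37 to -0.077) with castration, a change of -14.2%. In edgeR's quasi-likelihood test with Benjamini-Hochberg adjustment over all genes tested, the adjusted p was 0.0562. Among the 5 receptor genes tested in males 1 was called, beside 13.4% of all 14931 genes, 1995 in number, so the count among receptors was near the background. In bulk tissue, fewer cells of a type and less RNA per cell cannot be told apart.

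The size of the Htr2c difference in males varied little between fits, but its call did not hold in all of them. With fragment class as a term it was -0.23 with an adjusted p of 0.185 in edgeR, and with short libraries alone, 2 intact and 5 GDX males, it was -0.23 with an adjusted p of 0.198. Leaving out 1 rat at a time, edgeR's adjusted p was 0.144 without intact male 1, 0.124 without intact male 2, 0.104 without GDX male 2 and 0.137 without GDX male 5, and Htr2c was called without each of the other 6 rats. DESeq2 gave -0.22 and an adjusted p of 0.0279. The number of all genes called in males was 796 with the class term, 440 with short libraries alone and 1202 without GDX male 5.

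In females Htr2c had nearly the same mean with and without ovaries. The lowest, median and highest values were 58.4, 64.6 and 73.4 CPM in intact females, and 61.0, 64.5 and 75.5 CPM in OVX females. The means were 65.4 ± 4.95 (SD, n = 6) and 65.5 ± 5.22 CPM (SD, n = 6). The ranges overlapped almost entirely, and the log2 fold change was 0.0044 (SE 0.059, 95% confidence interval -0.12 to 0.13, edgeR adjusted p = 0.988). It was -0.065 with the class term and -0.069 with short libraries alone. Of the 4 receptor genes tested after ovariectomy, edgeR called 0 and DESeq2 called 0. At an unadjusted p under 0.05 edgeR had 0 of these 4. The background was 0.0335%, or 5 of 14910 genes. Over all genes 1516 had an unadjusted p under 0.05, and DESeq2 called 174. The difference between the GDX and OVX responses of Htr2c was itself tested over all 22 rats and came to -0.22 (SE 0.093), with an edgeR adjusted p of 0.338. Of 5 receptor genes tested for this difference edgeR called 0, with Htr2c alone at an unadjusted p under 0.05, and DESeq2 called 0. The background was 0.116% (18 of 15562 genes, with 1810 at an unadjusted p under 0.05 and 243 by DESeq2).

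Intact males also had more Htr2c than intact females. The log2 fold change was 0.21 (SE 0.060, 95% confidence interval 0.081 to 0.34), and edgeR's adjusted p was 0.0886. Intact males 1, 2 and 3 lay above every intact female. Of the 5 receptor genes tested 1 was called, beside 4.01% of all genes (599 of 14937). This comparison and that of GDX with intact males share the same 5 intact males, so a high level in those rats enters both. The call ended with short libraries alone, where the difference was 0.15 with an edgeR adjusted p of 0.566, and also with rat number as a term. Without 1 rat the adjusted p was 0.222 for intact male 1, 0.197 for intact male 2, 0.114 for intact male 3 and 0.125 for intact male 5. It was 0.165, 0.153, 0.156 and 0.149 without intact female 3, 4, 5 and 6. GDX males and OVX females differed by -0.012 (SE 0.066, 95% confidence interval -0.15 to 0.13, edgeR adjusted p = 0.973). Of 4 receptor genes tested between the gonadectomized sexes edgeR called 0, with 0 at an unadjusted p under 0.05, and DESeq2 called 0, beside a background of 0.232% (35 of 15084 genes, 1413 at an unadjusted p under 0.05 and 130 by DESeq2).

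**Figure D2:**
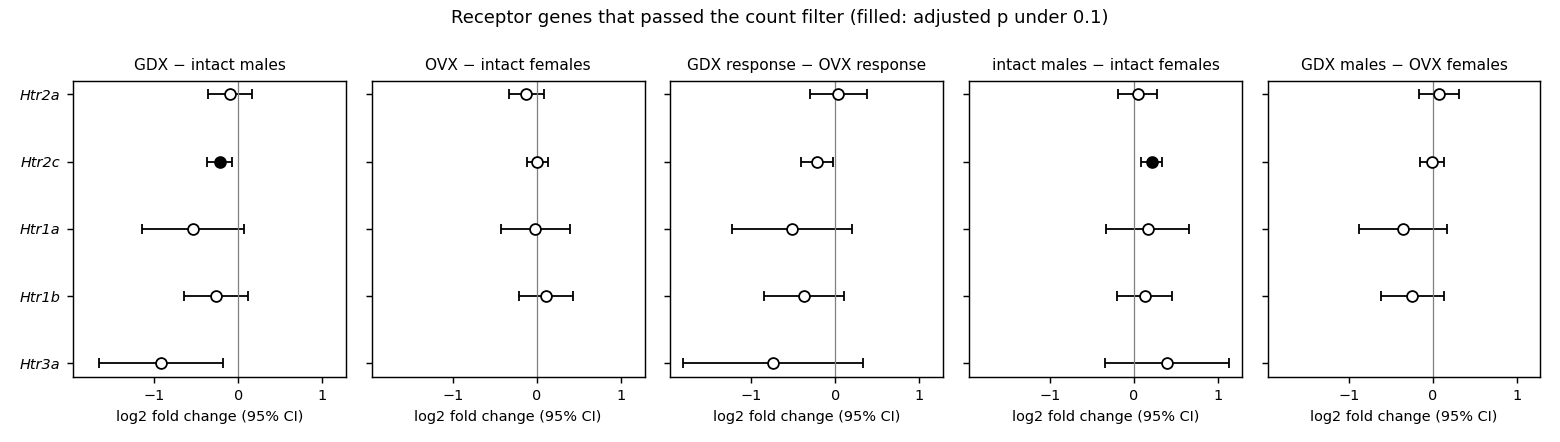
Log2 fold changes (horizontal axes) with 95% confidence intervals of the 5 receptor genes that passed the count filter, in 4 comparisons of groups and for the difference between the GDX and OVX responses. Filled points had an edgeR adjusted p under 0.1, which was Htr2c at -0.22 for GDX against intact males and at 0.21 for intact males against intact females. Htr3a has no point where it did not pass the filter.

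Htr2a (ENSRNOG00000010063), a Gq-coupled 5-HT2 receptor long studied in phrenic facilitation, had close means in all groups. Intact males 1, 2, 3, 5 and 6 had 15.7, 16.0, 20.5, 14.2 and 23.3 CPM. GDX males 1, 2, 4, 5 and 6 had 14.9, 17.2, 19.0, 16.9 and 15.8 CPM. Intact males 3 and 6, both long libraries, were the highest of all 22 rats, and all GDX values lay within the range of the intact males. The means were 17.9 ± 3.83 (SD, n = 5) and 16.8 ± 1.53 CPM (SD, n = 5), with a log2 fold change of -0.095 (SE 0.12, 95% confidence interval -0.36 to 0.17, edgeR adjusted p = 0.691). The direction turned to 0.16 both with the class term and with short libraries alone, and to 0.018 without intact male 6. Among intact rats, with sex as a term, long libraries had 0.22 more Htr2a on the log2 scale than short ones (SE 0.10, edgeR adjusted p = 0.646). Between the classes 0 of 5 receptor genes were called by edgeR and 0 by DESeq2, with 0 at an unadjusted p under 0.05 in edgeR. The background was 0% of 15723 genes, although 1218 had an unadjusted p under 0.05 and DESeq2 called 59.

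Htr2a in females had lowest, median and highest values of 16.5, 17.2 and 19.2 CPM with ovaries and 11.6, 15.9 and 19.3 CPM without. Of the OVX females 4 lay below every intact female and 1 above, so the OVX group was the more spread. The log2 fold change was -0.12 (SE 0.099, 95% confidence interval -0.33 to 0.083, edgeR adjusted p = 0.732). With 1 rat left out at a time it ran from -0.19 to -0.047.

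Htr2b (ENSRNOG00000017625), the other Gq-coupled 5-HT2 gene, was near the limit of counting. All 5 intact males together had 7 reads, the GDX males 21, the intact females 17 and the OVX females 27. It was at 0 in intact male 5 and OVX female 3. Without a filter on low counts edgeR gave a log2 fold change of 1.40 for GDX against intact males (SE 0.68, 95% confidence interval -0.024 to 2.82, adjusted p = 0.297) and 0.66 for OVX against intact females (SE 0.60, adjusted p = 0.709). The GDX mean was 0.272 ± 0.108 CPM (SD, n = 5) against 0.101 ± 0.0843 CPM (SD, n = 5), and the ranges overlapped, so no difference was detectable at this depth.

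The promoters of Htr2c and Htr2b are shown because Htr2c was the receptor gene called and because Htr2b alone of the 6 promoters analysed held a match to sequences that steroid hormone receptors are known to bind. Promoters, windows of 300 bases around the gene start, come from a table of RefSeq promoters on build GRCr8, from which 6 of the 9 genes were used. Promoters of Htr1a, Htr2a and Htr3a were not analysed here. The half-sites searched on both strands were GGTCA (estrogen receptors) and AGAACA (androgen and glucocorticoid receptors), shown in capitals where present, and they read 5′ to 3′ on the strand of the gene.
Htr2c promoter, chrX:115452940-115453239, plus strand: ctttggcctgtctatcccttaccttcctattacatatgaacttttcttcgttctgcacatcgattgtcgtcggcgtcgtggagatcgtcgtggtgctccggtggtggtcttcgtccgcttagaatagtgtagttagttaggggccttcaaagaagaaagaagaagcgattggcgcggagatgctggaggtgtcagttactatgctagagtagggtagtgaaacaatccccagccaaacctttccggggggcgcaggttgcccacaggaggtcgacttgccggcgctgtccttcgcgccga
Htr2b promoter, chr9:94204038-94204337, minus strand: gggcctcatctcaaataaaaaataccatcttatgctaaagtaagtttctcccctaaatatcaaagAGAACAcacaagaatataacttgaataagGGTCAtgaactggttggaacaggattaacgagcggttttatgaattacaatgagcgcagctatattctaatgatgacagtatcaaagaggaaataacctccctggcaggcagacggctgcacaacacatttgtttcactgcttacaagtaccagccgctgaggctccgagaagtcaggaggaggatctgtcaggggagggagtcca
GGTCA was in 40.5% and AGAACA in 20.7% of all 33469 promoters of this length. The full palindromes GGTCANNNTGACC and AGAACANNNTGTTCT, which contain the half-sites, were in 0.0269% and 0.0149% of promoters and in 0 of the 6. These matches describe letters and no binding was measured.

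Htr7 (ENSRNOG00000055705), the Gs-coupled receptor of the other route to phrenic facilitation, had too few reads for a comparison. The 5 intact males had 6 reads together and the GDX males 4, the intact females 11 and the OVX females 10. It was at 0 in 3 intact males, 3 GDX males and 3 intact females, and each OVX female had between 1 and 3 reads. Intact female 4 had 7 of the 11 reads of its group. Without a filter the log2 fold change in edgeR was -0.58 for GDX against intact males (SE 1.1, 95% confidence interval -2.87 to 1.70, adjusted p = 0.820) and -0.17 for OVX against intact females (SE 0.84, 95% confidence interval -1.92 to 1.57, adjusted p = 0.969). These intervals span changes of more than 1 log2 unit in either direction.

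Of the Gi-coupled receptors, Htr1a (ENSRNOG00000010254), which also acts as an autoreceptor on serotonergic cells, had a lower mean in GDX males without passing the test. Intact males 1, 2, 3, 5 and 6 had 3.76, 3.18, 2.04, 2.23 and 1.64 CPM, and GDX males 1, 2, 4, 5 and 6 had 2.72, 2.14, 1.35, 1.06 and 1.50 CPM. GDX males 4, 5 and 6 lay below every intact male and the other 2 within their range. The libraries of these 3 rats also had TMM factors of 0.948, 0.964 and 0.959, against 1.03 and 1.02 in GDX males 1 and 2, and 17.9, 16.7 and 15.9% of their reads on the most counted gene, against 13.5 and 13.8%. The log2 fold change was -0.54 (SE 0.29, 95% confidence interval -1.15 to 0.071, edgeR adjusted p = 0.273). In females it was -0.018 (SE 0.19, 95% confidence interval -0.43 to 0.39, adjusted p = 0.986 in edgeR), with medians of 2.16 CPM in intact and 2.28 CPM in OVX rats. It was -0.32 both with the class term (SE 0.25, edgeR adjusted p = 0.836) and with short libraries alone (SE 0.28, adjusted p = 0.885). The direction in females turned without some single rats, for example to 0.093 without intact female 4. The responses of the sexes differed by -0.52 (SE 0.35, edgeR adjusted p = 0.595).

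Htr1b (ENSRNOG00000013042), a terminal autoreceptor and heteroreceptor, had a mean of 4.64 ± 0.831 CPM with testes and 3.88 ± 0.737 CPM without (SD, n = 5 each), and of 4.26 ± 0.663 CPM with ovaries and 4.58 ± 0.986 CPM without (SD, n = 6 each). No pair of neighbouring means differed beyond its spread. The log2 fold change was -0.26 in males (SE 0.18, 95% confidence interval -0.64 to 0.11, edgeR adjusted p = 0.402). In females it was 0.11 (SE 0.15, edgeR adjusted p = 0.876), and -0.019 without OVX female 4, whose 6.46 CPM was the highest value of any rat. It was 0.28 both with the class term (SE 0.22, edgeR adjusted p = 0.833) and with short libraries alone (SE 0.22, adjusted p = 0.885). Htr1d (ENSRNOG00000012038) had 20 reads among intact and 19 among GDX males, and 33 among intact and 27 among OVX females, with GDX male 2 at 0. Htr5b (ENSRNOG00000002549) had 5, 3, 8 and 7 reads in the same groups and was at 0 in 10 of 22 rats. Without a filter the log2 fold changes of Htr1d were -0.13 in males (SE 0.66, edgeR adjusted p = 0.947) and -0.28 in females (SE 0.48, adjusted p = 0.885), and those of Htr5b -0.72 (SE 1.1, adjusted p = 0.769) and -0.15 (SE 0.88, adjusted p = 0.978).

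Htr3a (ENSRNOG00000006595), the subunit that every 5-HT3 channel needs, had the largest log2 difference among the 5 receptor genes tested in males, on few reads. Intact males 1, 2, 3, 5 and 6 had 1.06, 1.04, 0.906, 0.804 and 0.459 CPM, from 7 to 15 reads each. GDX males 1, 2, 4, 5 and 6 had 0.663, 0.404, 0.472, 0.496 and 0.196 CPM, from 3 to 10 reads each. Intact males 1, 2, 3 and 5 lay above every GDX male, and intact male 6 lay among them. The log2 fold change was -0.92 (SE 0.34, 95% confidence interval -1.65 to -0.19) and missed the level of 0.1 with an edgeR adjusted p of 0.117. Leaving out 1 rat at a time, it passed in 2 of 10 fits. These had an edgeR adjusted p of 0.0753 (log2 fold change -1.08) without intact male 6 and of 0.0764 (-1.11) without GDX male 1. Over all 10 fits the adjusted p ran up to 0.235 and the log2 fold change from -1.11 to -0.73. Htr3a was also not called in any of the 6 other alternatives, among them the class term and short libraries alone. In females Htr3a ranged from 0.219 to 1.07 CPM with ovaries and from 0.224 to 0.858 CPM without. These ranges overlapped almost entirely, the gene did not pass the filter there, and without a filter the log2 fold change was -0.17 (SE 0.39, edgeR adjusted p = 0.920). The responses of the sexes differed by -0.74 (SE 0.52, edgeR adjusted p = 0.616).

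The table held 5 further serotonin receptor genes. Htr4 and Htr6, which couple to Gs, had 21 to 52 and 1 to 17 reads per library. Htr1f and Htr5a, which couple to Gi, had 9 to 27 and 10 to 40. Htr3b, an accessory subunit of the 5-HT3 channel, had 2 reads in 1 intact male and 0 in the other 21 rats, below the limit of counting. None of Htr1f, Htr4 and Htr5a, those of the 5 tested after gonadectomy in males and in females, was called by edgeR. The background was 13.4% of all genes in males and 0.0335% in females. Log2 fold changes in males were 0.061 for Htr1f, -0.33 for Htr4 and 0.15 for Htr5a.

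These 5 receptors were listed with 7 genes that make, carry or break down serotonin and with S100a10 and Ric3, which act on the transport or assembly of receptors, 14 genes in all. After castration 9 of the 14 were tested, and 3 rose and 0 fell in edgeR, beside 13.4% of all genes called, with a median log2 fold change of 0.15 beside 0.0021 for all genes. Ddc, the enzyme that makes serotonin and dopamine from their precursors, rose by 0.52 on the log2 scale (SE 0.16, adjusted p = 0.0494), from 6.16 ± 1.53 to 8.84 ± 1.17 CPM (SD, n = 5 each). Maoa and Maob, which break monoamines down, rose by 0.26 (SE 0.061, edgeR adjusted p = 0.0191) and 0.27 (SE 0.077, adjusted p = 0.0421). After ovariectomy edgeR called 0 of 8 tested, with 3 of the 8 at an unadjusted p under 0.05, and DESeq2 also called 0. The background was 0.0335% called by edgeR, with 1516 of 14910 genes at an unadjusted p under 0.05. Tph2, the neuronal enzyme that starts serotonin synthesis, the transporter Slc6a4 and the factor Fev marked serotonergic cell bodies, which lie in the brainstem. They were near 0, at a mean of 0.584 CPM for Tph2 and 7 reads in all rats together for Fev.

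Signalling genes downstream of each receptor class were also counted after castration, beside 13.4% of all genes called. Of 14 genes of the Gq arm, 2 fell and 0 rose. These were Plcb1, a phospholipase C (log2 fold change -0.25, SE 0.045, edgeR adjusted p = 0.00731), and Prkce, a protein kinase C (-0.24, SE 0.063, adjusted p = 0.0295). Of 16 genes of the Gs arm, 3 fell and 0 rose, namely Gnal, a Gs-type alpha subunit (-0.27, adjusted p = 0.0195), Adcy3, an adenylyl cyclase (-0.34, adjusted p = 0.0194), and Prkaca, the catalytic subunit of protein kinase A (-0.16, adjusted p = 0.0476), all in edgeR. Of 9 genes of the Gi arm, the alpha subunits Gnai2 and Gnai3 rose by 0.27 and 0.28 (edgeR adjusted p = 0.00772 and 0.00951), and Kcnj6, a potassium channel opened through Gi-coupled receptors, fell by 0.37 (adjusted p = 0.0774). Of 7 genes at the shared end of the routes, which holds Bdnf and its receptor Ntrk2, Mapk3, an ERK kinase, rose by 0.26 (edgeR adjusted p = 0.00848) and Mtor fell by 0.19 (adjusted p = 0.0586). Medians were -0.044 for the Gq, -0.098 for the Gs and -0.037 for the Gi arm, and -0.038 for the shared end, beside 0.0021 for all genes.

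The same 4 lists had 0 genes called by edgeR after ovariectomy, with 10 of 46 genes at an unadjusted p under 0.05 and 5 called by DESeq2. The background was 0.0335% called by edgeR, with 1516 of 14910 genes at an unadjusted p under 0.05 and 174 called by DESeq2. For the difference between the responses edgeR called 0 of 46, with 6 at an unadjusted p under 0.05 and 1 by DESeq2, beside a background of 0.116% called by edgeR, 1810 of 15562 genes at an unadjusted p under 0.05 and 243 by DESeq2. Between intact males and intact females Gnai2 was lower in males by edgeR (-0.14, adjusted p = 0.0785), and between GDX males and OVX females Rapgef4, a cyclic AMP sensor known as EPAC2, was lower in GDX males (-0.21, adjusted p = 0.0704). Each was the 1 gene called of 46 in its comparison, beside 4.01% of all genes between intact and 0.232% between gonadectomized sexes. Gnai2 was not called with short libraries alone (-0.15, adjusted p = 0.476), without the filter (0.102) or with rat number as a term (0.239), nor was Rapgef4 with rat number as a term (0.256).

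With fragment class as a term, 8 of the 13 genes called after castration in these lists and the serotonin list stayed called in edgeR. Ddc (edgeR adjusted p = 0.119), Maob (0.351), Prkaca (0.138), Kcnj6 (0.282) and Mtor (0.118) did not, with their directions kept. Over all alternatives, log2 fold changes lay between 0.44 and 0.67 for Ddc and between 0.18 and 0.31 for Maob. They lay between -0.19 and -0.13 for Prkaca, -0.51 and -0.33 for Kcnj6, and -0.23 and -0.16 for Mtor. These alternatives were applied to the lists after the data had been seen. With short libraries alone 5 stayed called, namely Maoa, Gnal, Gnai2, Gnai3 and Mapk3. With rat number as a term 11 of the 13 stayed called, all but Maob and Prkaca. With no filter 12 stayed called, all but Kcnj6, and DESeq2 and RLE factors kept all 13. Leaving out 1 rat at a time ended no call of Maoa, Plcb1, Prkce, Gnal, Adcy3, Gnai2, Gnai3 or Mapk3. It ended that of Ddc without intact male 2 (adjusted p = 0.117), intact male 6 (0.111) or GDX male 5 (0.112). Maob was not called without GDX male 5 (0.114), and Prkaca not without intact male 5 (0.108), GDX male 4 (0.103) or GDX male 5 (0.124). Kcnj6 and Mtor lost the call without 8 and 6 of the 10 rats, and Gnai2 between intact sexes and Rapgef4 between gonadectomized sexes without 9 of 11 each.

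**Figure D3:**
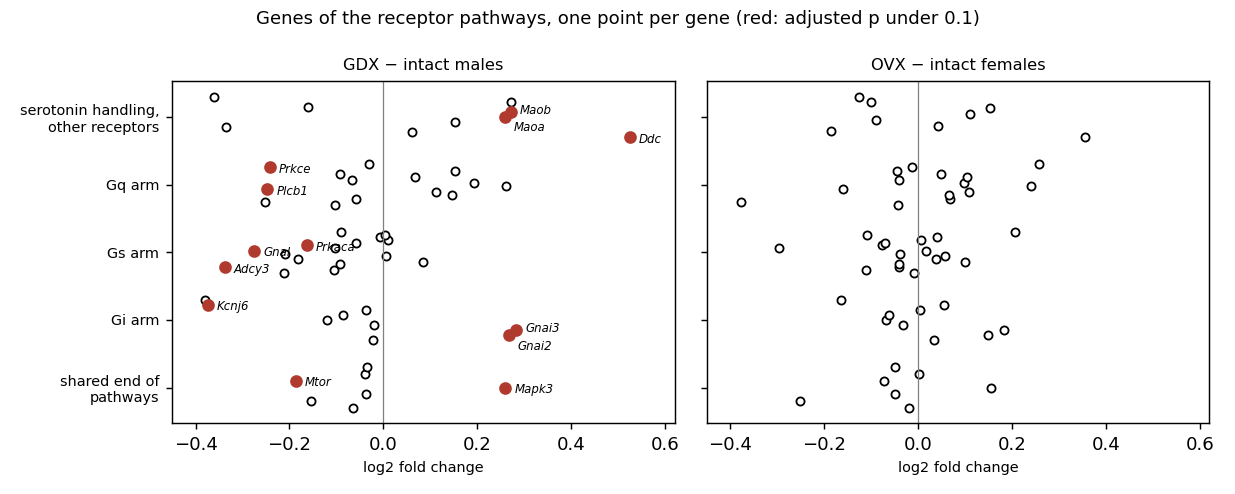
Log2 fold changes (horizontal axes) of the tested genes of 5 lists, for GDX against intact males on the left and OVX against intact females on the right. Each point is 1 gene, and red points, named, had an edgeR adjusted p under 0.1. There are 13 named genes in males, from Kcnj6 at -0.37 to Ddc at 0.52, and none in females.

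Some markers of cell types also changed in GDX males, and their part in the fall of Htr2c was not tested. All counts of markers in males stand beside 13.4% of all genes called. Of the 4 inhibitory neuron markers 2 fell, Slc6a5 by 0.37 (edgeR adjusted p = 0.0068), the most abundant of them and the glycine transporter of glycinergic neurons, and Slc32a1 by 0.43 (adjusted p = 0.0304). The summed CPM of the 4 was 489 ± 49.4 in intact males (SD, n = 5) and 382 ± 39.1 in GDX males (SD, n = 5), against 416 ± 23.5 and 416 ± 23.9 in intact and OVX females (SD, n = 6 each). Slc17a6, the most abundant of the 3 excitatory neuron markers, fell by 0.31 (edgeR adjusted p = 0.0068), and their sum went from 92.7 ± 7.37 to 74.8 ± 3.31 CPM in males (SD, n = 5 each). Most of this sum was Slc17a6, with a mean of 80.0 CPM over all rats, and it was the 1 of the 3 tested in males. Slc6a5 and Slc17a6 were also higher in intact males than in intact females, by 0.24 and 0.27 (edgeR adjusted p = 0.0161 and 0.0267). They were not called with short libraries alone (edgeR adjusted p = 0.337 and 0.373). Over all alternatives the differences lay between 0.21 and 0.27 for Slc6a5 and between 0.20 and 0.31 for Slc17a6. These 2 genes were the 1 of 4 inhibitory and the 1 excitatory marker called between intact sexes, beside 4.01% of all genes. The calls of Slc6a5, Slc32a1 and Slc17a6 after castration held with the class term. These are the comparisons in which Htr2c was called, and they share the intact males.

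Motor neuron markers, which include those of the phrenic pool, were counted as well, and their part in the level of Htr2c was not tested either. Of 6 markers 1 fell in GDX males, beside 13.4% of all genes called, the vesicular acetylcholine transporter Slc18a3 (log2 fold change -0.43, edgeR adjusted p = 0.0542, and -0.18 with an adjusted p of 0.559 with the class term). It was not called without GDX male 4 (adjusted p = 0.129) or GDX male 5 (0.128). Their summed CPM, most of it Prph, was 447 ± 118 in intact males and 417 ± 35.2 in GDX males (SD, n = 5 each), and 523 ± 66.5 in intact females and 405 ± 63.8 in OVX females (SD, n = 6 each). The median log2 fold change of the 6 was -0.38 after ovariectomy and -0.21 after castration. Both comparisons were also uneven in fragment class. edgeR called 0 of the 6 after ovariectomy, with 5 at an unadjusted p under 0.05 and 1 by DESeq2. The background was 0.0335% called by edgeR, 1516 of 14910 genes at an unadjusted p under 0.05 and 174 by DESeq2. Among intact rats the median of the 6 was 0.40 for long against short libraries, with 0 called by edgeR, 6 at an unadjusted p under 0.05 and 2 by DESeq2, beside 0% of 15723 genes called by edgeR, 1218 at an unadjusted p under 0.05 and 59 by DESeq2.

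Markers of several non-neuronal cell types rose in GDX males. All 7 tested meningeal and perivascular fibroblast markers rose in edgeR (median log2 fold change 1.60, 13.4% of all genes called), and their summed CPM, led by Col1a1, was 118 ± 48.0 in intact and 366 ± 143 in GDX males (SD, n = 5 each). Among GDX males it was 167 and 282 in rats 1 and 2 and 409, 534 and 438 in rats 4, 5 and 6. All 5 endothelial markers rose (median 0.54), as did 4 of 7 mural and 2 of 5 astrocyte markers. So did 1 of 5 for oligodendrocytes and 1 of 2 for their precursors. Of 5 microglial markers edgeR called 0, with 1 at an unadjusted p under 0.05. DESeq2 called 1 of the 5, a count given here without its share over all genes. Among all 14931 genes, 3549 had an unadjusted p under 0.05 after castration. With the class term edgeR called 5 of the 7 fibroblast, 1 of the 5 endothelial, 0 of the 7 mural, 1 of the 5 astrocyte, 0 of the 5 oligodendrocyte and 0 of the 2 precursor markers, and 796 of all genes. Without single rats the oligodendrocyte call, Mbp (0.17, adjusted p = 0.067 in edgeR), ended for 6 of 10 and the precursor call, Pdgfra (0.23, adjusted p = 0.0586), for 3 of 10. The mural call of Pdgfrb ended for 5 of 10 and the fibroblast calls of Lum and Dcn for 3 and 1 of 10, and the other mural, fibroblast, endothelial and astrocyte calls held. Intact females had 290 ± 128 and OVX females 363 ± 73.6 CPM of fibroblast markers (SD, n = 6 each). In intact males against intact females 5 of the 7 fibroblast (median -1.24) and 1 of the 5 endothelial markers were lower in edgeR, beside 4.01% of all genes called. With short libraries alone 0 of the 7 and 1 of the 5 were called there, with medians of -1.39 and 0.26. Without single rats the fibroblast calls of Aldh1a2 and Igf2 between intact sexes ended for 5 and 8 of 11, so that 3 of the 5 calls held without any 1 rat. After ovariectomy 1 of the 5 endothelial markers rose in edgeR, Kdr (log2 fold change 0.77, adjusted p = 0.0966), beside 0.0335% of all genes called. Kdr was not called with the class term (edgeR adjusted p = 0.456), with short libraries alone (0.563) or without 6 of the 12 rats. Its log2 fold change lay between 0.69 and 0.85 over all alternatives. All 5 endothelial markers were positive (median 0.49) with an unadjusted p under 0.05, beside 1516 of 14910 genes at that level. Their summed CPM was 114 ± 28.1 in intact and 162 ± 23.5 in OVX females (SD, n = 6 each). It was 93.7 ± 13.4 and 144 ± 17.7 in intact and GDX males (SD, n = 5 each). Medians after ovariectomy were 0.31 for the fibroblast and 0.25 for the mural markers, with 0 of 7 called by edgeR in each. At an unadjusted p under 0.05 were 0 and 3 of the 7, beside the same background, and DESeq2 called 0 and 1. Intact males were the group with the lowest fibroblast and the highest inhibitory and excitatory sums, and also the highest mean of Htr2c. A link between these was not tested. Dorsal root ganglion markers stayed low, with the most abundant gene at 2.08 CPM (Trpv1) and Mrgprd at 0 in every rat. Ependymal and choroid markers were led by Ccdc153 at 2.46 CPM, and Ttr had 10 reads over all rats.

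**Figure D4:**
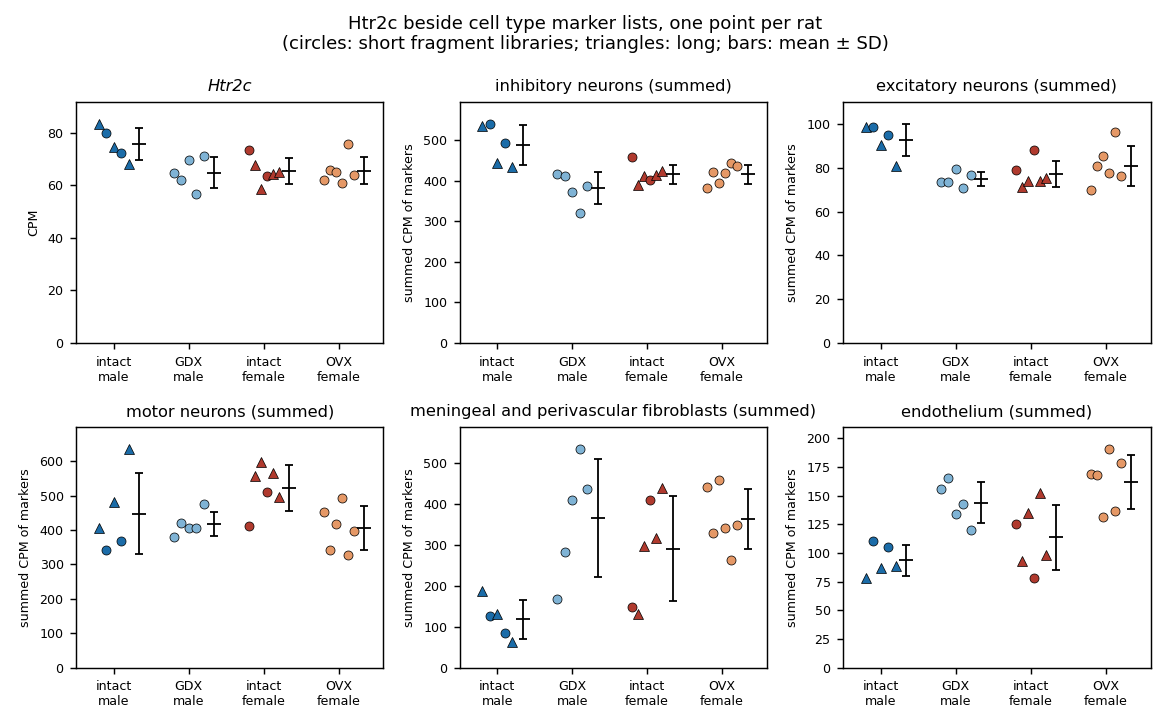
Htr2c (CPM) and the summed CPM of 5 marker lists in the 4 groups, vertical axes from 0. Each point is 1 rat, circles are short and triangles long fragment libraries, and bars are the mean ± SD of 5 or 6 rats. Intact males had the highest means of Htr2c (75.6), inhibitory markers (489) and excitatory markers (92.7, mostly Slc17a6), and the lowest of fibroblast markers (118).

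The genes whose levels followed each receptor gene most closely from rat to rat were found among 15561 genes, as the 2 with the highest Pearson r of log2 CPM over 22 rats after removal of the group means. These r are the highest of many and are a description. Fragment class was not removed from the values, and those of Htr3a rest on 3 to 19 reads per library. For Htr2c they were Slc4a10, a bicarbonate transporter of neurons (r = 0.801), and Zfp483 (r = 0.796). For Htr2a they were Slc6a15, an amino acid transporter (r = 0.855), and Caprin2 (r = 0.845). For Htr1a they were Plppr3 (r = 0.837) and Tafa2 (r = 0.816), and for Htr1b Brms1 (r = 0.755) and Pcyt1b (r = 0.734). For Htr3a they were Tnfrsf11b (r = 0.800, and 0.327 without removal of the group means) and Snapc4 (r = 0.800).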

How the data were processed

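Total RNA of 22 rats was sequenced as 1 library per rat. The authors aligned the reads, counted them per gene with Subread and deposited raw counts, not normalized. The submitters' processing notes name TopHat2 2.0.13 and build Rnor 6.0, while the study's methods name another aligner and kit, so the aligner and the use of strand in counting are not settled. Tests were run in edgeR 4.0.16 (R 4.3.3) on the groups compared only, with filterByExpr, TMM factors and the quasi-likelihood test. Calls are at a Benjamini-Hochberg adjusted p under 0.1 over all genes tested. Likeness used log2 CPM with a prior count of 2. The pipeline was tested on simulated data. In comparisons of groups these data held no effect of fragment class, so they cannot show how it affects the calls. The p-values measure the spread between rats. Fragment class comes from the study's list of libraries. No 2 libraries of a group held identical counts.

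All 9 receptor genes are named. Of the pathway lists every gene with an adjusted p under 0.1 in the GDX, OVX or response comparison is named. Results of 2 marker lists are not reported here. Markers and other genes named were chosen after their values were seen. Members and lists were chosen with earlier results of these data known. As alternatives, 1 rat was left out at a time, fragment class or rat number was a term, short libraries were used alone, the filter was dropped, and RLE factors or DESeq2 1.42.0 replaced the main choice. The ratio of Htr2c to neuron markers, and all alternatives for list genes, were added after seeing the data. The markers of that ratio were chosen knowing that they fell in GDX males, so it supports nothing on Htr2c and is not used. Markers Tac2, Col1a2, Pecam1, Itgam and Foxj1 were not used here.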

Additional observations from a re-analysis of the deposited data

Results flagged for a closer look

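Of 96 groups of rats searched, 9 receptor genes and 15 summed marker lists in 4 groups each, 3 held a single rat far from the others by Dixon's test at 95%, and chance flags about 1 in 20 groups. Htr1b in OVX female 4 was at 6.46 CPM, with the other 5 OVX females between 3.81 and 4.68. Htr2c in OVX female 5 was at 75.5 CPM, with the others between 61.0 and 65.6. The summed CPM of oligodendrocyte markers in OVX female 4 was 21154, with the others between 23179 and 24279.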

How the results depend on the processing

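Few reads limited 4 receptor genes, and the uneven fragment classes limited the comparisons of intact with gonadectomized rats. RLE factors changed no call and no direction of a receptor gene. The number of genes called in GDX against intact males was 796 with the class as a term and 440 with short libraries alone, where 0 receptor genes were called in either. In OVX against intact females DESeq2 called 174, no filter gave 11 and the class term 3. In intact males against intact females short libraries gave 34 genes and 0 receptors. DESeq2 called 130 in GDX males against OVX females. In the difference between the responses DESeq2 called 243, no filter gave 33, the class term 6 and short libraries 5. Between the fragment classes DESeq2 called 59 and no filter gave 210. The causes were not tested. 

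Htr2a in GDX against intact males was 0.16 with the class term and 0.16 with short libraries, and Htr2c in OVX against intact females -0.065 and -0.069. In intact males against intact females with short libraries Htr1a was -0.070 and Htr2a -0.17. Relative to neuron markers Htr2c was 0.12 in GDX against intact males and -0.025 in intact males against intact females. These markers were chosen after they were seen to fall in GDX males, so the ratio supports nothing on Htr2c and is not used. The causes of these changes of direction were not tested.

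Rats with the same number in different groups were not treated as pairs. Their correlation after removal of the group means ran from -0.114 to 0.0626 and was over 0.1 in 0 pairs. Differently numbered rats were not compared in this way, so these few values cannot exclude something shared by same-numbered rats. With the replicate block 1274 genes were called in GDX against intact males, 0 in OVX against intact females, 255 and 0 receptors in intact males against intact females, and 0 in the difference between the responses. Htr2c had an edgeR adjusted p of 0.0986 in males and 0.102 between intact sexes under the block.

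With 1 rat left out, genes called ranged from 1202 to 2446 in GDX against intact males (receptors 0 to 2), 0 to 113 in OVX against intact females, 352 to 777 in intact males against intact females (receptors 0 to 1), 23 to 44 in GDX males against OVX females, 1 to 275 in the difference between the responses and 0 to 1 between the classes. Directions changed for some rats left out. In GDX against intact males Htr2a ran from -0.17 to 0.018. In OVX against intact females Htr1a ran from -0.13 to 0.093, Htr1b from -0.019 to 0.19 and Htr2c from -0.040 to 0.042. In intact males against intact females Htr1a ran from -0.014 to 0.29 and Htr2a from -0.072 to 0.12. In GDX males against OVX females Htr2a ran from -0.0022 to 0.14 and Htr2c from -0.045 to 0.034, and in the difference between the responses Htr2a ran from -0.048 to 0.15. Between the classes Htr1b ran from -0.037 to 0.18 and Htr3a from -0.43 to 0.27.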
